A study of Mus musculus with 8 samples.

Results

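The genes described here are *Spocd1* and 9 further genes of the PIWI-interacting RNA (piRNA) pathway, *Piwil2*, *Piwil4*, *Ddx4*, *Mael*, *Tdrd1*, *Tdrd9*, *Tdrkh*, *Mov10l1* and *Pld6*. They are 10 of the 45583 gene symbols in the deposited count table and were picked by symbol. *Spocd1* was picked because its counts differed between the groups of these same libraries, so differences between groups in the 10 genes are given as a description and carry no test. The study used mice lacking ghrelin-O-acyltransferase (GOAT, encoded by *Mboat4*), the enzyme that attaches a fatty acid to the hormone ghrelin, to learn how acylated ghrelin affects ovarian development. Total RNA of the ovary of 8 female C57/Bl6 mice, aged 3 weeks, was sequenced, 1 library per mouse, with 4 libraries labelled WT (1118, 1119, 1120 and 1121) and 4 labelled GOAT KO (1139, 1140, 1141 and 1146). The deletion was not limited to the ovary, both genotypes were bred from heterozygous crosses, and the labels name no treatment.

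piRNAs are small RNAs of germ cells that guide PIWI proteins to transposon transcripts, which are then cut, or to transposon genes, which are then methylated and silenced. The pathway runs from the processing of long precursor RNAs on the surface of mitochondria, through an amplification cycle in granules rich in RNA helicases and Tudor proteins, to DNA methylation in the nucleus, a step known from the fetal male germ line in which SPOCD1 links the PIWI protein PIWIL4 to the methylation machinery. In the ovary the pathway is active in oocytes, which make up a small part of the tissue.

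A short element was present in the promoters of 6 of the 10 members. RefSeq promoter windows (GRCm38.p6, 250 bases before to 50 bases after the transcription start) were matched for 8 of the 10 genes, all but *Spocd1* and *Piwil2*. The palindrome CACGTG, an E-box that basic helix-loop-helix proteins can bind, was found in 6 of these 8 windows (*Ddx4*, *Mael*, *Tdrd1*, *Tdrd9*, *Mov10l1* and *Pld6*), and not in those of *Piwil4* and *Tdrkh*, against 7.24% of all 27025 promoter windows. It was found in 4 of 17 windows of other piRNA pathway genes (*Piwil1*, *Stk31*, *Fkbp6* and *Wdr77*). The motif CCAAT, counted on both strands, was in 6 of 8 members and in 37.9% of all windows, and TAATTG, also on both strands, was in 1 of 8 and in 8.15%. The motifs were chosen after the sequences had been read, and a match is a description of the letters only. The windows of the helicase gene *Ddx4*, of *Tdrd1*, the member with the highest level, and of *Mov10l1*, whose level varied much among libraries, are shown 5′ to 3′ along the gene, with CACGTG in capitals.
Ddx4, chr13:112652261-112652560, - strand: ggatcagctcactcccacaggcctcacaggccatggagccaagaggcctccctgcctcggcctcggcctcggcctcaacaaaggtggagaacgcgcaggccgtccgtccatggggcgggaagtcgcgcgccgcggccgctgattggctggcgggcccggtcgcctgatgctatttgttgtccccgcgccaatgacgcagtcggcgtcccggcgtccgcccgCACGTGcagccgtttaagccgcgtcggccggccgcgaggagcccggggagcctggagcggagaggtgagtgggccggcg
Tdrd1, chr19:56825959-56826258, + strand: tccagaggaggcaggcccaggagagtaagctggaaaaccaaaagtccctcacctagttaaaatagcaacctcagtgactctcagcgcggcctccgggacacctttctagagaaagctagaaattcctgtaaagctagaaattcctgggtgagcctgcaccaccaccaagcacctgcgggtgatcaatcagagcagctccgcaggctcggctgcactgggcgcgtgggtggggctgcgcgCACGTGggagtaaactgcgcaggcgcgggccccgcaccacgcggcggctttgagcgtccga
Mov10l1, chr15:88982744-88983043, + strand: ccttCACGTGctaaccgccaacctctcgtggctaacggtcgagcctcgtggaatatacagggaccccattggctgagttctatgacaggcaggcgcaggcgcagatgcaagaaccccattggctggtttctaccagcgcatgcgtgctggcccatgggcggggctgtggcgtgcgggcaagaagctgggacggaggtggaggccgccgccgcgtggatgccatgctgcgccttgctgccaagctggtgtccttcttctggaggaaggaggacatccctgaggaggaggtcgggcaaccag
The element began 29 bases before the RefSeq start of *Ddx4*, 11 bases before that of *Tdrd1* and 33 bases before that of *Pld6*. It lay farther away in the other 3 genes, 223 bases before the start in *Mael*, 165 and 95 bases in *Tdrd9*, and 246 bases in *Mov10l1*, near the edge of the window. GENCODE places the starts of *Ddx4* (112652475) and *Mov10l1* (88982909) elsewhere, so these distances hold for the RefSeq starts only.

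The libraries held between 16147216 and 19481798 counts on genes, and levels are given as CPM, counts scaled to library size by the TMM method. *Mboat4*, the deleted gene, had 1, 1, 1 and 3 counts in the libraries labelled WT and 5, 7, 7 and 8 in those labelled GOAT KO. Taken as reads of *Mboat4*, these counts go against the labels. The exons of *Mboat4* overlap those of *Gm39158*, so some of these counts may belong to the overlapping gene. The part of *Mboat4* that was deleted is not given in the sources used here, so every direction below rests on the labels alone. No exchange of labels is drawn from so few counts. Markers of growing oocytes were abundant throughout, with all 10 detected and a summed level of 1613 to 1945 CPM in the libraries labelled WT and 1688 to 1996 CPM in those labelled GOAT KO. In a whole ovary, fewer oocytes and less RNA per oocyte cannot be told apart. Of 6 testis markers, 2 were at 0 in every library and 5 together held at most 0.372 CPM. The sixth, *Sox9*, a gene of Sertoli cells, had 2.51 to 5.08 CPM. The summed level of 4 adipose markers was 296 CPM in GOAT KO 1139, against 8.12 to 20.8 CPM in the other 7 libraries. Results are also given for 6 libraries, without GOAT KO 1139 and WT 1120. These stood apart in their groups, with a chi-square per gene of 16.5 to 25.0 between WT 1120 and the others labelled WT (3.96 to 8.95 among those), and of 11.001 to 14.002 for GOAT KO 1139 (4.51 to 6.28 among the rest). The study set aside 1 library of each group without naming them in its text.

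Compared per length, the members were expressed over a wide range. RPKM, the reads scaled for exon length and library size, averaged 7.35 ± 0.740 (SD, n = 8) for *Tdrd1*, whose Tudor domains bind methylated PIWI proteins. *Ddx4*, the germ cell helicase also known as Vasa, followed at 3.84 ± 0.461 RPKM and *Mael*, a protein of the germ granules, at 2.89 ± 0.581 RPKM. *Pld6* (1.60), *Piwil2* (1.40), *Tdrd9* (1.19), *Spocd1* (1.18) and *Tdrkh* (0.963) formed a middle group in mean RPKM, and *Mov10l1* (0.647) and *Piwil4* (0.236) were lowest. The ranges over 8 libraries did not overlap between *Tdrd1* and *Ddx4*, between *Mael* and *Pld6* and between *Mov10l1* and *Piwil4*. The other 6 pairs of neighbours in this order overlapped, although *Ddx4* was above *Mael* in 8 of 8 libraries. For scale, *Gdf9*, an oocyte growth factor of the marker list, had a mean of 150.0 RPKM in the libraries labelled WT. *Spocd1* was the member whose place differed most between the groups, at rank 8 of 10 in libraries labelled WT (0.621 ± 0.169 RPKM, SD, n = 4) and rank 4 in those labelled GOAT KO (1.74 ± 0.568 RPKM, SD, n = 4). The exons of *Tdrkh* overlap those of *Oaz3* and the exons of *Piwil4* those of *Gm10706*, so some of their reads may belong to the overlapping gene.

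**Figure D1:**
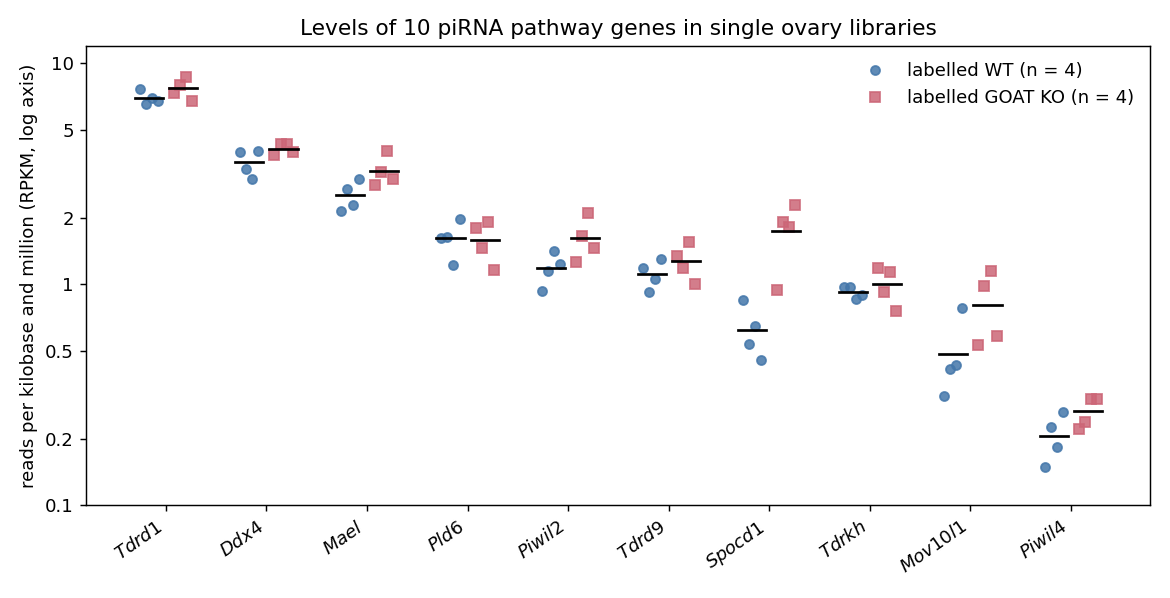
RPKM of the 10 genes (log axis) in each of 4 libraries labelled WT (circles) and 4 labelled GOAT KO (squares), in the order of their mean over all 8; black lines are group means. *Spocd1* is the gene whose groups do not overlap, with 0.457 RPKM as the lowest library and 2.29 RPKM as the highest.

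Of the 10 genes, *Spocd1* differed most between the groups. It lies at chr4:129929249-129957115 on the + strand of GRCm38 (ENSMUSG00000028784.14) and its longest annotated transcript has 14 exons. Its level was 2.73, 1.72, 2.09 and 1.47 CPM in WT 1118, 1119, 1120 and 1121, and 3.05, 6.17, 5.84 and 7.38 CPM in GOAT KO 1139, 1140, 1141 and 1146. All 4 libraries labelled GOAT KO were above all 4 labelled WT, but GOAT KO 1139, the library with the adipose markers, was close to WT 1118 (51 against 44 counts). The part of the adipose RNA in this was not tested. The fitted difference was 1.49 on the log2 scale (SE 0.28), a 2.81-fold higher level in the libraries labelled GOAT KO. It was 1.72 (SE 0.22), or 3.29-fold, in the 6 libraries, and between 1.33 (without GOAT KO 1146) and 1.70 (without GOAT KO 1139) when single libraries were left out.

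Among all 16601 genes tested, 484 (2.92%) had groups that did not overlap, 273 (1.64%) with higher and 211 (1.27%) with lower values in the libraries labelled GOAT KO. The call rule of the study asks for a log2 fold change beyond 0.5 in either direction together with an unadjusted p under 0.05. With edgeR's quasi-likelihood test it was met by 278 genes (1.67%), 159 (0.958%) higher and 119 (0.717%) lower, and 4 passed a Benjamini-Hochberg adjusted p of 0.05. All 10 members passed the filter on low counts. Of them 2, *Spocd1* and *Mov10l1*, met the call rule, both higher, and 1, *Spocd1*, did not overlap. With each library left out in turn *Mov10l1* met the rule in 3 of 8 fits, without WT 1121, GOAT KO 1139 or GOAT KO 1146. *Piwil2* met it in 3, without WT 1120, GOAT KO 1139 or GOAT KO 1146. In the 6 libraries 3 members met the rule, with *Piwil2* added, where 398 of 16641 genes (2.39%) were called, 219 (1.32%) higher and 179 (1.08%) lower. Since the genes were picked with this contrast known, nothing is read from these counts. The log2 fold change was above 0 in 9 of 10 members, with a median of 0.28, and in 8282 of the 16601 genes tested.

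**Figure D2:**
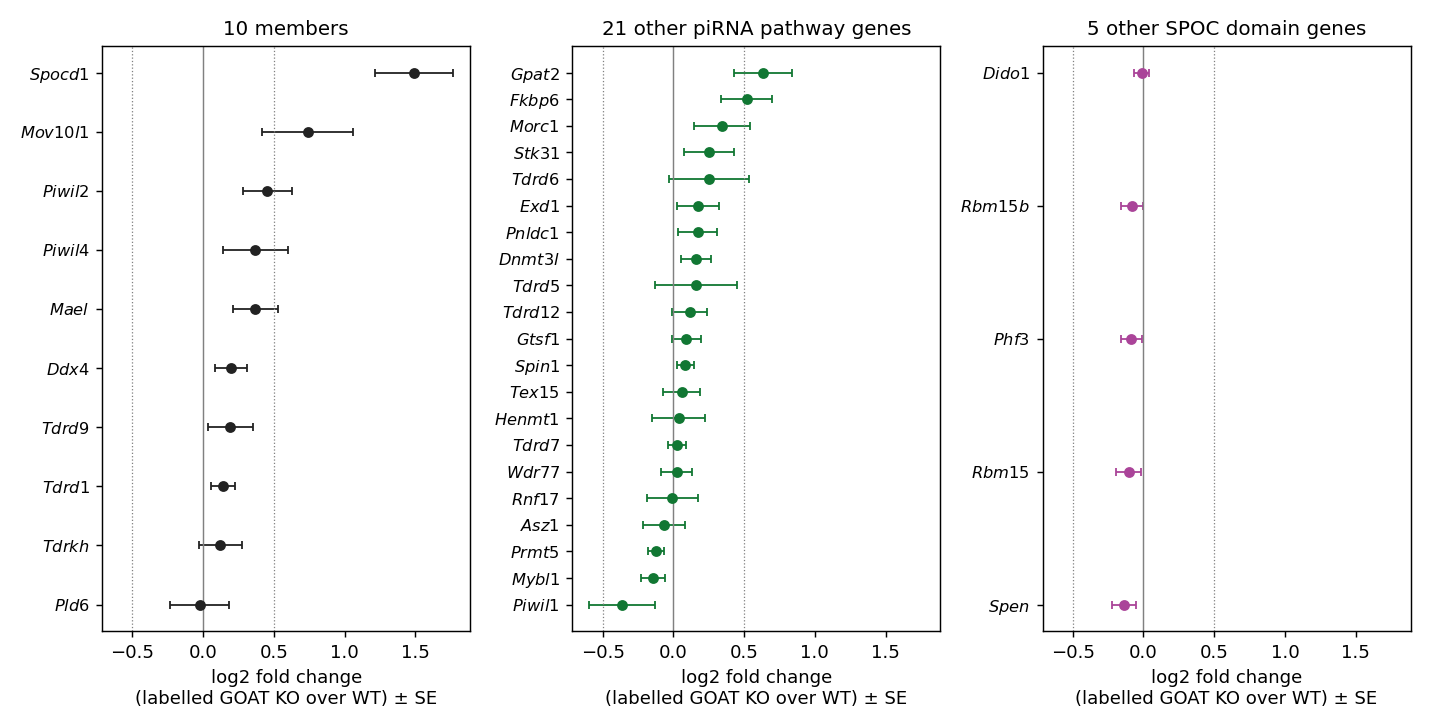
Log2 fold change of libraries labelled GOAT KO over WT (points) with its SE (bars), for the 10 members, 21 other piRNA pathway genes and 5 other genes with a SPOC domain; dotted lines mark 0.5 on either side of 0. *Spocd1* lies at 1.49, apart from every other gene shown, and the SPOC domain genes lie just below 0.

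The PIWI proteins, which carry the piRNAs, were represented by *Piwil2* and *Piwil4*. *Piwil2*, which acts in the cytoplasm, had 4.96, 6.06, 7.46 and 6.54 CPM in the libraries labelled WT and 6.70, 8.74, 11.1 and 7.73 CPM in those labelled GOAT KO, in the order of their numbers. Of the latter, 3 were above every library labelled WT and GOAT KO 1139 was not. The log2 fold change was 0.45 (SE 0.17), and 0.65 (SE 0.17) in the 6 libraries. It moved between 0.30 without GOAT KO 1141 and 0.56 without GOAT KO 1139 when single libraries were left out. *Piwil4*, the nuclear partner of SPOCD1, was the lowest member, with 0.805, 1.22, 0.988 and 1.42 CPM against 1.20, 1.28, 1.64 and 1.63 CPM. Its groups overlapped, and at 13 to 32 counts per library its log2 fold change of 0.37 (SE 0.23) was measured with large counting error.

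The helicases differed in how much they varied. *Mov10l1*, which binds piRNA precursors, had 1.30, 1.72, 1.81 and 3.27 CPM in the libraries labelled WT and 2.21, 4.09, 4.81 and 2.44 CPM in those labelled GOAT KO. WT 1121 was above GOAT KO 1139 and 1146, so the groups overlapped. The log2 fold change was 0.74 (SE 0.32) and moved between 0.51 without GOAT KO 1141 and 1.07 without WT 1121. *Ddx4* was among the steadiest, with 193, 180, 165 and 223 counts against 194, 213, 254 and 205 counts. Its log2 fold change was 0.20 (SE 0.11). Across the 8 libraries the highest level was 3.70 times the lowest for *Mov10l1*, 1.44 times for *Ddx4* and 1.32 times for *Tdrd1*. Counts per library were 21 to 94 for *Mov10l1*, 165 to 254 for *Ddx4* and 632 to 925 for *Tdrd1*. Counting error therefore weighs most on *Mov10l1* of these 3 genes, and its part in the spread was not tested.

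The Tudor proteins, which assemble PIWI proteins into granules, showed small differences. *Tdrd1* had 41.8, 35.8, 37.98 and 36.7 CPM in the libraries labelled WT and 40.1, 43.6, 47.4 and 36.7 CPM in those labelled GOAT KO. The groups overlapped, and the log2 fold change was 0.14 (SE 0.09). *Tdrd9*, which also carries a helicase domain, had 104, 90, 104 and 129 counts against 121, 105, 165 and 94 counts. Its groups overlapped as well, with a log2 fold change of 0.19 (SE 0.16). *Tdrkh*, a mitochondrial protein needed for trimming of piRNA 3′ ends, had 5.95, 5.95, 5.27 and 5.51 CPM against 7.30, 5.68, 7.01 and 4.65 CPM. The highest and the lowest library were both labelled GOAT KO, and the log2 fold change was 0.12 (SE 0.15).

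The other members were *Mael* and *Pld6*, which encodes a mitochondrial nuclease of precursor processing. *Mael* had 3.72, 4.67, 3.95 and 5.18 CPM in the libraries labelled WT and 4.91, 5.56, 6.96 and 5.17 CPM in those labelled GOAT KO, with a log2 fold change of 0.37 (SE 0.16). Its groups overlapped, with GOAT KO 1139 and 1146 below WT 1121. *Pld6* had 2.85, 2.89, 2.14 and 3.49 CPM against 3.17, 2.57, 3.38 and 2.03 CPM. It was the member with no direction, with a log2 fold change of -0.02 (SE 0.21) whose sign held in 5 of 8 fits, each without 1 library. GOAT KO 1141 held the highest level of 6 of the 10 members (*Piwil2*, *Piwil4*, *Mael*, *Tdrd1*, *Tdrd9* and *Mov10l1*), while *Spocd1* was highest in GOAT KO 1146.

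Because these are germ cell genes in a whole ovary, the level of oocyte RNA was set beside them. The log2 summed CPM of the growing oocyte markers differed by 0.10 between the groups (two-sided exact permutation test, p = 0.257, n = 4 and 4), and that of the markers of oocytes in small follicles by 0.01 (p = 0.886, same exact test). That sum is weighted to *Kit*, the most abundant of its 6 genes, and the mean of their log2 CPM, a measure added after the data were seen, differed by 0.27 (p = 0.114, same exact test). The smallest p that 4 against 4 libraries allow is 0.0286. With single libraries left out, the difference in summed growing oocyte markers moved between 0.06 (without GOAT KO 1141) and 0.16 (without WT 1118). That in summed small follicle markers moved between -0.04 (without WT 1119) and 0.12 (without GOAT KO 1139). *Tdrd1* followed the growing oocyte markers across the 8 libraries, with Pearson's r of 0.95 (exact permutation p = 0.000223, adjusted over the 10 members 0.00223) and Spearman's rho of 0.98 (exact permutation p = 0.000397, adjusted 0.00397). Without GOAT KO 1141 and WT 1118, the libraries farthest from the median, r was 0.97 (exact permutation p = 0.00139, adjusted 0.0139). None of the other 9 members passed an adjusted p of 0.05, with r between -0.14 (*Piwil4*) and 0.64 (*Tdrd9*), and with 8 libraries a relation of that size cannot be told from none. For *Spocd1*, r was 0.57 (exact permutation p = 0.141, adjusted 0.370) and rho 0.50 (exact permutation p = 0.216, adjusted 0.432). *Mov10l1*, with r of 0.27 (exact permutation p = 0.495, adjusted 0.668), was lowest in WT 1118, a library with a high level of growing oocyte markers. The permutations shuffled all 8 libraries without regard to group, and each group holds too few libraries for a value of its own.

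**Figure D3:**
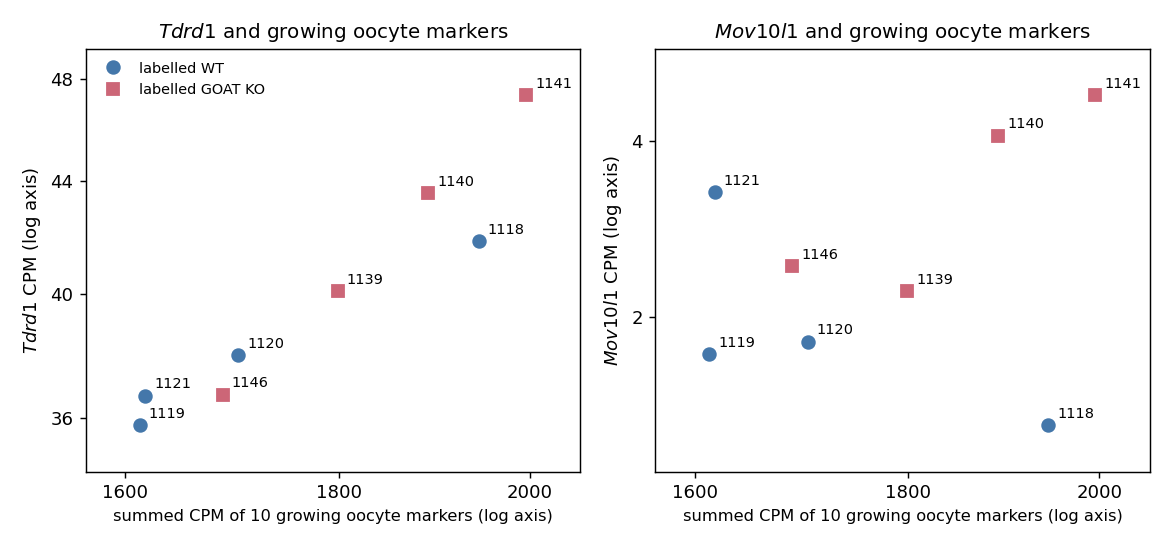
CPM of *Tdrd1* (left) and *Mov10l1* (right) against the summed CPM of 10 growing oocyte markers in the 8 libraries (log axes; circles, labelled WT; squares, labelled GOAT KO; numbers, animals). *Tdrd1* lies along a line with r of 0.95, while *Mov10l1* does not, with WT 1118 lowest at 1.30 CPM.

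The members were also set against that mean log2 CPM of the 6 small follicle markers. With it 4 members passed an adjusted p of 0.05, *Piwil2* (r of 0.84), *Tdrd1* (0.82), *Mov10l1* (0.81) and *Mael* (0.80), with exact permutation p adjusted over the 10 members between 0.0383 and 0.0419. *Spocd1* had r of 0.71 (exact permutation p = 0.0377, adjusted 0.0753). By Spearman's rho none of the 10 passed, with adjusted exact permutation p of 0.109 and above. Without GOAT KO 1140 and GOAT KO 1141, the libraries farthest from the median, none of the 10 passed, so that relation rests on these libraries. The mean of the 6 small follicle markers and 9 of the 10 members were higher in libraries labelled GOAT KO. The permutations ignored the groups, so these p values can hold that difference between groups. A relation apart from that difference was not tested. *Sohlh1*, a transcription factor of small follicle oocytes in that list, had 22, 43, 38 and 49 counts in the libraries labelled WT and 33, 62, 121 and 62 in those labelled GOAT KO. Its highest library was GOAT KO 1141, as for most members.

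Splice junction reads show which exons of *Spocd1* were read. They came to 8, 3, 3 and 0 in the libraries labelled WT and 1, 10, 10 and 21 in those labelled GOAT KO, 56 in all. The libraries labelled WT together had 14 junction reads for 140 counts of the gene, and those labelled GOAT KO 42 for 393. Of the 13 annotated introns 7 were read. The joints of exons 6 and 7 and of exons 13 and 14, 1 in each part of the gene, are shown with the last 15 bases of the upstream exon in lower case and the first 15 of the downstream exon in capitals (GENCODE transcript, GRCm38).
Exon 6 to exon 7: gatccccgaaatgttGACCTGTTTCTCAAA
Exon 13 to exon 14: ctctggggggcccagGCCTTGAAATTACTC
Exon 6 ends at position 129948994 and exon 7 starts at 129949091 of chromosome 4. This joint had 0 reads in libraries labelled WT and 8 in those labelled GOAT KO. Of these 8 reads, 7 came from GOAT KO 1146 and 1 from GOAT KO 1139, so the count rests mostly on 1 library. The joint of exons 13 and 14 (129955577 to 129956371) had 8 and 7, while all joints from exon 9 on together had 14 and 25.

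In libraries labelled WT, 0 of 14 junction reads lay upstream of exon 9, which allows a share of up to 21.4% (3 counts of the total, counting error only) for the pooled reads. For WT 1118 alone, with 8 reads, the limit is 37.5%, and the other libraries labelled WT had too few reads to limit it. In libraries labelled GOAT KO, 17 of 42 (40.5%) lay there, 11 of 21 reads in GOAT KO 1146, 4 of 10 in GOAT KO 1140, 1 of 10 in GOAT KO 1141 and the single read of GOAT KO 1139. The share in GOAT KO 1141 lies within the limit of the libraries labelled WT, so a difference between the groups in where the reads fell was not shown, and no test was made. The annotated joint of exons 9 and 10 had 0 reads. Exon 10 was joined to an end 72 bases past that of exon 9 in 4 reads (2 in WT 1118 and 2 in GOAT KO 1141), and to one 27 bases before it in 2 reads (GOAT KO 1141). Transcripts assembled by the authors with StringTie included pieces of *Spocd1* in 3 of 8 libraries, GOAT KO 1140, 1141 and 1146, none of which matched an annotated transcript. This lack of a match was not particular to *Spocd1*. *Tdrd1*, *Ddx4* and *Mael*, assembled in 8 of 8 libraries, had 0 libraries with a match, while *Tdrkh* had 4, *Pld6* 2 and *Tdrd9* 1.

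**Figure D4:**
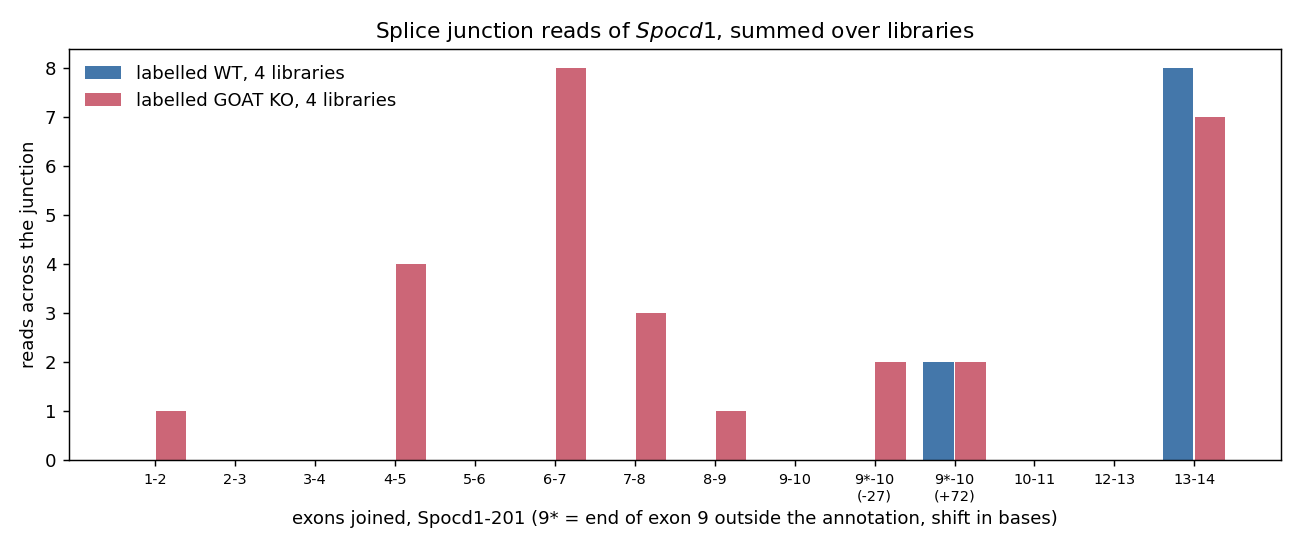
Splice junction reads of *Spocd1* summed over 4 libraries labelled WT and 4 labelled GOAT KO, by the exons they join, with 1 joint left out (bars, numbers of reads; 9* marks an end of exon 9 outside the annotation, with its shift in bases). Upstream of exon 9 all 17 reads come from libraries labelled GOAT KO, 11 of them from GOAT KO 1146. From exon 9 on, with the joint left out of the plot included, the groups have 14 and 25 reads.

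Several of the more abundant members were read on most or all of their introns. *Tdrd1* had 1507 junction reads and reads on 25 of 25 introns, *Ddx4* had 437 on 19 of 21, and *Mael* 145 on 11 of 11. *Mov10l1*, at a level per length below that of *Spocd1*, had 10 reads in the libraries labelled WT and 35 in those labelled GOAT KO, on 14 of 26 introns. *Tdrd1* and *Ddx4* had 26.8 and 26.9 junction reads per 100 counts, against 10.5 for *Spocd1* and 10.1 for *Piwil2*.

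The genes next to *Spocd1* on chromosome 4 had smaller differences. *E330017L17Rik*, a long noncoding RNA gene that ends 9461 bases upstream, had 47, 56, 63 and 61 counts in the libraries labelled WT and 36, 41, 49 and 36 in those labelled GOAT KO. Its CPM did not overlap between the groups and were lower in the latter, as for 1.27% of genes tested, with a log2 fold change of -0.47 (SE 0.15, edgeR adjusted p = 0.983). *Adgrb2*, a receptor gene 27754 bases downstream, had 101, 120, 123 and 100 counts against 102, 114, 193 and 202, and its log2 fold change was 0.47 (SE 0.20, edgeR adjusted p = 0.983). It met the call rule in the 6 libraries, at 0.64 (SE 0.19). The pseudogene *Gm12966* (0.11, SE 0.07) and the antisense gene *Gm12963* (0.18, SE 0.25) did not meet it with either set of libraries.

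Further genes of the pathway came from a list of 24, of which 21 passed the filter on low counts (*Dnmt3c*, *Gtsf1l* and *Btbd18* did not). Of these, 2 met the call rule, both higher in libraries labelled GOAT KO, against 0.958% of all genes, and 0 passed an adjusted p of 0.05. *Gpat2*, a mitochondrial protein that binds PIWIL2, had 2.23, 2.50, 2.31 and 2.40 CPM in the libraries labelled WT and 2.63, 3.67, 5.12 and 3.20 CPM in those labelled GOAT KO (log2 fold change 0.64, SE 0.21, edgeR adjusted p = 0.983). *Fkbp6*, a co-chaperone of PIWI loading, had 4.15, 4.17, 3.51 and 3.98 CPM against 4.67, 5.81, 7.63 and 4.47 CPM (log2 fold change 0.52, SE 0.18, edgeR adjusted p = 0.983). For both genes the groups did not overlap and GOAT KO 1141 was highest. Without GOAT KO 1141, 0 of the 21 met the rule, and without WT 1120, 1 did. Their median log2 fold change was 0.09, with 16 of 21 above 0.

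The highest of these genes per length were *Spin1*, a histone reader, at 79.4 RPKM, *Tdrd5* at 41.7, *Prmt5* at 29.1, *Tex15* at 18.7, *Wdr77* at 14.8 and *Gtsf1* at 9.62 RPKM, all above the highest member. The exons of *Tdrd5* overlap those of *4930518J20Rik*, and the exons of *Wdr77* those of *Atp5f1* and *Gm42890*. Some reads of *Tdrd5* and *Wdr77* may therefore belong to the overlapping genes. *Prmt5* and *Wdr77* encode the enzyme complex that methylates PIWI proteins and has many other substrates. None of the 6 met the call rule, with log2 fold changes from -0.12 (*Prmt5*) to 0.16 (*Tdrd5*). *Piwil1*, the third PIWI gene, had a log2 fold change of -0.36 (SE 0.23, edgeR adjusted p = 0.983).

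SPOCD1 carries a SPOC domain, a protein-binding fold found in few mouse proteins. Of the 5 other genes with this domain, 0 met the call rule with edgeR or DESeq2 and 0 had an unadjusted p under 0.05, against 278 (1.67%) and 767 of all 16601 genes. A count of 0 among 5 genes says nothing particular about them. Their log2 fold changes were -0.14 (*Spen*), -0.10 (*Rbm15*), -0.09 (*Phf3*), -0.08 (*Rbm15b*) and -0.01 (*Dido1*), and their median was -0.09.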

How the data were processed

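Ovary RNA was sequenced as 50-base single reads. TopHat2 2.0.14 was used by the authors for alignment to GRCm38 (mm10), and they deposited whole-number counts per gene symbol, with no normalization, and counts of reads across splice junctions. The deposited StringTie 1.0.4 assemblies hold a score column with a single value, and only their positions were used. The counting tool and its use of strand are not given in the sources used here, and the deposited mapping summary was not used. Gene identifiers, positions and lengths came from GENCODE vM21.

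Counts were analysed with edgeR 4.0.16 (TMM, filterByExpr, quasi-likelihood test) in R 4.3.3 over all 8 libraries. Only this edgeR fit was tested on simulated data. RPKM used the union of exons. Single values and correlations used exact permutation in scipy 1.17.1. DESeq2 1.42.0, RLE scaling, no filter, 6 libraries and each library left out were alternatives. No pair of libraries of one group was alike within sampling noise (chi-square per gene 3.96 to 25.0).

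The members and the lists were chosen with earlier results of these data known. Named genes are the members, *Mboat4*, the called and the 6 highest other piRNA genes, the 5 SPOC genes and the 2 tested genes that flank *Spocd1* most closely on either side. *Sohlh1*, *Kit*, *Sox9*, *Gdf9* and *Piwil1* were named after their values were seen.
A splice joint of *Spocd1* is not reported here by itself, although its reads are in the totals.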

Additional observations from a re-analysis of the deposited data

Results flagged for a closer look

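The summed level of the 6 markers of oocytes in small follicles was 124 CPM in GOAT KO 1139 and 162 to 169 CPM in the other 3 libraries labelled GOAT KO. It was singled out because the gap to the next library was 0.845 of the range of the group, above the 0.829 that Dixon's test sets for 4 samples. Of the 26 groups of values checked this was 1, and chance gives about 1 in 20.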

How the results depend on the processing

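The paper describes the WT and KO mice as littermates, but the labels do not name the litters, so no paired analysis was possible. The number of genes called, 278 with all 8 libraries, was 691 of 27459 without the filter on low counts, 398 in the 6 libraries and between 231 and 437 when single libraries were left out, with 437 without WT 1120. The number of other piRNA pathway genes called, 2, was between 0 and 3 when single libraries were left out. The number of members that met the rule, 2, was between 1 and 3. The number of members that followed oocyte markers, 1, was 4 with the mean of the small follicle markers, a measure added after the data were seen. The level of *Piwil4* was 0.385 RPKM when divided by its longest transcript, still the lowest. The causes were not tested. The rule of calls uses unadjusted p values, so chance calls are among them. *Piwil4*, with 13 to 32 counts per library, is limited by counting error.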

Other observations

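*Tdrd5*, a Tudor gene of the pathway, varied more within the groups than between them. The libraries labelled WT had 4901, 5996, 2469 and 5897 counts and those labelled GOAT KO 3264, 6773, 7409 and 4023 counts, in the order of their numbers. Its lowest libraries, WT 1120 and GOAT KO 1139, belong to different groups, and its exons overlap those of *4930518J20Rik*.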
